A study of Arabidopsis thaliana with 30 samples.

Results

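The 48 genes described here encode proteins of the cytosolic ribosome and of the nucleolus of Arabidopsis thaliana. They were taken by locus from the 30237 probe sets, for 29920 loci, of leaf 3 transcript profiles, and each had 1 probe set. By role, 19 encode proteins of the large subunit, 22 proteins of the small subunit, 3 proteins of the acidic stalk (P0 and P1) and 4 nucleolar proteins. The reference gene table gave a symbol for 25 of the 48, some of which are printed here under another name. The other 23 are printed by locus, and their family, as well as that of PGY1, EMB2296 and BBC1, follows the Arabidopsis ribosomal protein nomenclature under which the genes were chosen. The arrays, 3 per group and 1 per biological repeat, come from 2 experiments on Col-0 seedlings grown in vitro on MS medium. For the time course (18 arrays) plants without treatment were sampled on days 8, 9, 10, 11, 12 and 13, counted from the end of the cold period given to the seeds. For the norflurazon experiment (12 arrays) seedlings were transferred at day 8, to norflurazon or, as controls, to MS medium without it. They were sampled after 24 h (day 9) and 48 h (day 10). How many plants made up a repeat is not given in the sources used here. Norflurazon is a herbicide that blocks carotenoid synthesis, and its concentration is not given in the sources used here.

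A eukaryotic ribosome joins a small subunit, which reads the mRNA, and a large subunit, which forms the peptide bond and carries a stalk of acidic proteins that recruits translation factors. Ribosomal RNA is transcribed, modified and packed with ribosomal proteins in the nucleolus, where fibrillarin methylates it, the dyskerin CBF5 converts uridines to pseudouridine and nucleolin acts on the rRNA genes and their transcripts. Arabidopsis keeps several genes for nearly every ribosomal protein, and mutants in single genes often have narrow, pointed first leaves.

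The arrays report log2 values, and all differences below are differences of log2 means of 3 arrays, ± the standard error of the limma fit. A gene is called where its Benjamini-Hochberg adjusted p over all 30237 probe sets is below 0.05. The 48 genes were read on the same arrays and can shift together with an array. Their median, for example, ran from 10.26 to 10.53 over the 3 day 13 arrays. Counts of signs or of unadjusted p over them are therefore not 48 separate observations. Time course arrays had medians of 3.50 to 3.63, those with norflurazon and their controls 2.81 to 2.88, so levels were compared only within an experiment. The 48 genes had values of 4.13 to 12.64 (time course) and 4.92 to 13.23 (norflurazon and its controls). Every group mean lay above the array median. The dimmest gene was AT5G39850 (RPS9), with means of 4.17 to 4.39 on days 10 to 13. These lay below the upper quartile of every time course array (4.67 to 4.94). Arrays of 1 group correlated at 0.976 to 0.987 and at 0.992 to 0.995 respectively. Leaf identity was checked with mesophyll markers, whose list mean on time course arrays ran from 10.2 to 12.8, while 3 of the 4 root markers (PLT1, RHD6 and WER) lay at or below the array median in every group, as did the shoot meristem regulators CLV3, KNAT1 and WUS. The other shoot meristem genes, STM and CUC3, lay above it in some groups, both on day 8 and CUC3 also on norflurazon at day 10. In bulk leaf tissue, fewer cells with many ribosomes and less of these transcripts per cell cannot be told apart.

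All 48 genes fell from day 8 to day 13, against 19.8% of all probe sets called lower and 33.7% called in either direction. The median difference was -1.0 and all probe sets together had a median of 0.02. In all 48 the 3 day 13 arrays lay below the 3 day 8 arrays, as they did in 24% of all probe sets. Large subunit genes had a median of -0.98 (range -1.29 to -0.71), small subunit genes -0.99 (-1.32 to -0.64), stalk genes -0.85 (-1.15 to -0.50) and nucleolar genes -1.32 (-1.93 to -1.04). In a separate fit of the brighter 15118 probe sets alone, with p-values adjusted over those, 37.9% of them and all 48 were called lower. The size of the fall depends on the scaling. After another round of quantile normalization all 48 were still called lower, but their median was -0.67 and 23 of them had changed in size by more than 1.5 times. After centring each array on its median it was -1.04.

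**Figure D1:**
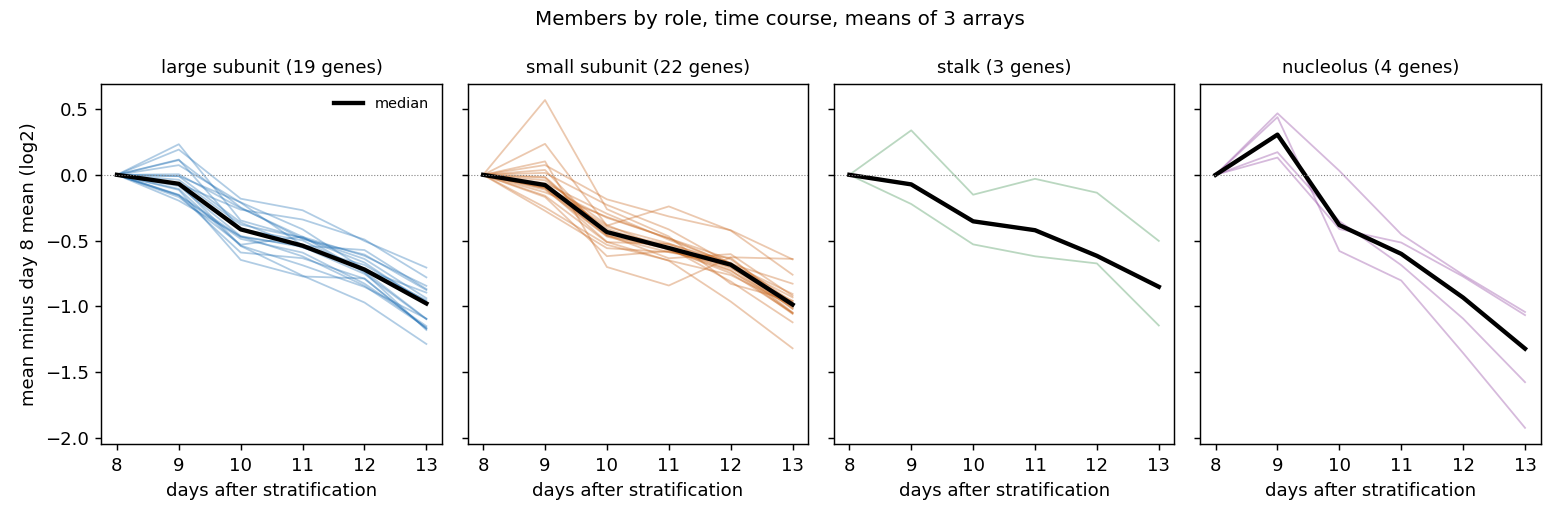
Mean of 3 arrays on each day minus the day 8 mean (log2, vertical axis) against days after stratification for the 48 genes, in 4 panels by role, with 1 thin line per gene and the median of the role in black. The medians end at -0.98, -0.99, -0.85 and -1.32 on day 13, and the 4 nucleolar lines lie above 0 on day 9.

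Within the large subunit, AT2G47610, an RPL7a gene, had the largest difference, at -1.29 ± 0.12 (adjusted p = 1.94e-07). Its day 8 arrays read 11.28, 11.24 and 11.30 and its day 13 arrays 9.99, 9.81 and 10.16. The whole of the day 13 group thus lay over 1 log2 unit below the day 8 group. AT2G19730 (RPL28) gave -1.18 ± 0.12, RPL23AA, from a pair whose proteins sit near the exit of the peptide tunnel, -1.17 ± 0.10, and AT1G70600 (RPL27a) -1.17 ± 0.11. At the other end RPL5B, 1 of 2 genes for the protein that binds the 5S ribosomal RNA, changed by -0.71 ± 0.10. Its arrays read 11.36, 11.29 and 11.19 on day 8 and 10.60, 10.40 and 10.72 on day 13, which do not overlap. RPL10A, whose protein joins the large subunit late in assembly, gave -0.78 ± 0.10, and RPL3A, next to the peptidyl transferase centre, -0.84 ± 0.11. PGY1, an RPL10a gene whose mutants enhance defects of leaf polarity, lay between these extremes at -0.87 ± 0.09, and RPL24B, needed for translation to restart after upstream reading frames, at -1.10 ± 0.10.

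Among small subunit genes AT5G58420, 1 of 3 RPS4 genes, fell by most, with 11.53, 11.33 and 11.40 on day 8 and 10.22, 9.87 and 10.22 on day 13 (-1.32 ± 0.13, adjusted p = 5.48e-07). The other RPS4 genes, AT2G17360 and AT5G07090, gave -1.12 ± 0.12 and -1.06 ± 0.09, and AT5G27700 (RPS21) -1.05 ± 0.11. The smallest differences were those of AT5G39850 (RPS9), RPS10B and AT2G31610 (RPS3), at -0.64 ± 0.13, -0.64 ± 0.10 and -0.76 ± 0.12. The AT5G39850 arrays moved from 5.16, 5.10 and 4.78 to 4.41, 4.40 and 4.32 without overlap. RPS6A and RPS6B, whose protein is the substrate of the S6 kinases of the growth-promoting TOR pathway, changed by -1.02 ± 0.10 and -0.96 ± 0.10. RPS18A and RPS13A, known from their pointed first leaf mutants, gave -1.05 ± 0.10 and -0.91 ± 0.10.

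The 3 stalk genes differed in the size of their fall. AT1G01100, which encodes the acidic protein P1, read 12.57, 12.64 and 12.47 on day 8 and 11.50, 11.31 and 11.43 on day 13 (-1.15 ± 0.09, adjusted p = 3.88e-08). For P0, the protein on which the stalk is built, AT3G09200 changed by -0.85 ± 0.10. The other P0 gene, AT2G40010, had the smallest difference of the 48, from 6.28, 5.77 and 5.95 to 5.52, 5.37 and 5.61 (-0.50 ± 0.14, adjusted p = 0.00802). Its groups do not overlap, but its call was the only one of the 48 lost when an array was left out, at an adjusted p of 0.0560 without day 8 replicate 1.

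The nucleolar genes included the largest differences of the 48. FIB2, a fibrillarin gene, read 9.50, 9.31 and 9.38 on day 8 and 7.41, 7.11 and 7.89 on day 13, and was 3.80-fold lower (-1.93 ± 0.25, adjusted p = 7.56e-06). CBF5 went from 8.77, 8.65 and 8.59 to 7.05, 6.64 and 7.57 (-1.58 ± 0.19, adjusted p = 5.13e-06). Neither gene's groups came within 1 log2 unit of each other. FIB1, the other fibrillarin gene, changed from 9.62, 9.44 and 9.30 to 8.45, 8.21 and 8.50 (-1.07 ± 0.11, adjusted p = 8.55e-07). NUC-L1, the main nucleolin gene, was the most variable on day 8, at 8.87, 8.15 and 8.29, and read 7.27, 7.17 and 7.73 on day 13 (-1.04 ± 0.20, adjusted p = 0.000573). All 4 had their highest mean on day 9. Of their differences between days 8 and 9, 0 were called and 1 had an unadjusted p below 0.05 (12.3% of all probe sets). Among the 48 genes, these 4 included, 31 peaked on day 8 and 17 on day 9.

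**Figure D2:**
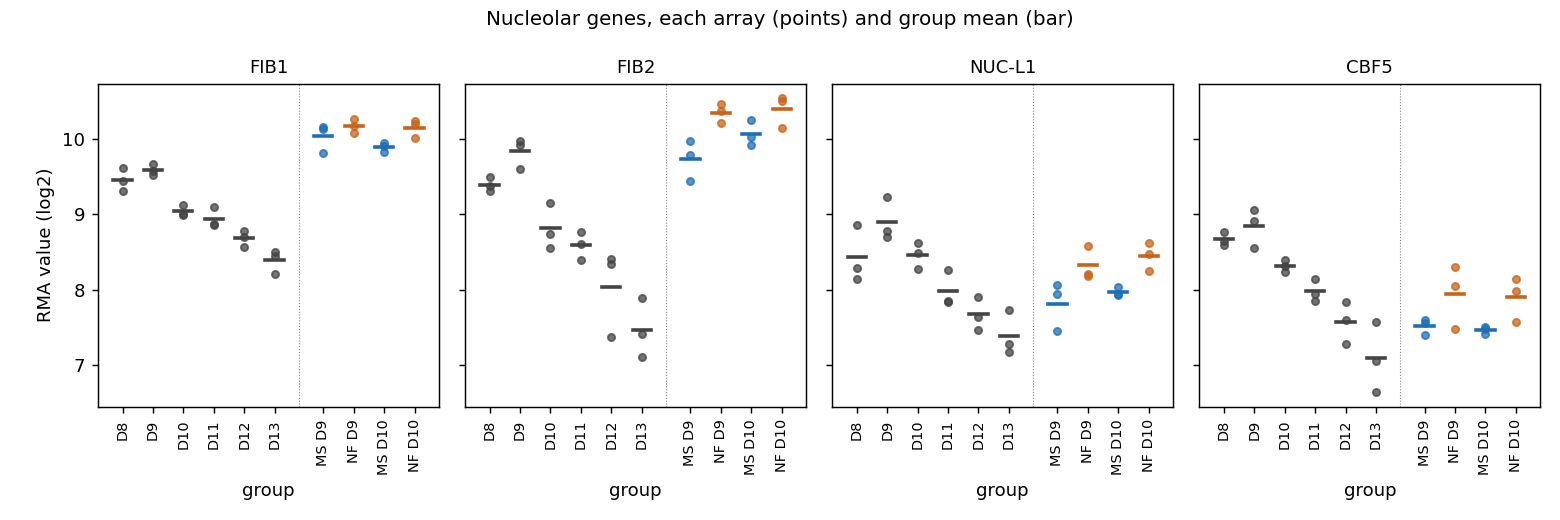
RMA values (log2, vertical axis) of FIB1, FIB2, NUC-L1 and CBF5 on every array (points) with the mean of 3 arrays (bar) for the 6 days of the time course (grey), MS medium (blue) and norflurazon (orange). FIB2 spans 9.98 on day 9 to 7.11 on day 13, and its norflurazon arrays of day 9 lie at 10.21 to 10.47, above the MS arrays of that day.

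Each of the 5 daily intervals was also tested. From day 8 to day 9 limma called 0 of the 48, against 1.28% of all probe sets, and 6 had an unadjusted p below 0.05, against 12.3%. Of the differences 31 lay below 0, as did 51.8% of all probe sets. After quantile normalization again 18 did, so the sign of this interval is not settled for the ribosomal proteins, while the 4 nucleolar genes lay above 0 under each scaling tried, by 0.13 to 0.47 as deposited. RPSAb, a gene for the laminin receptor-like protein SA of the small subunit, had the largest difference in this interval, 0.57 ± 0.20, which missed the threshold (adjusted p = 0.203). From day 9 to day 10, 27 of the 48 were called lower and 0 higher, against 5.01% of all probe sets called lower and 2.37% called higher. They comprised 10 large subunit, 13 small subunit, 2 stalk and 2 nucleolar genes. All 48 differences were negative, as were 52.8% of all probe sets, with a median of -0.36. In 46 the day 10 arrays lay below the day 9 arrays, as in 15.6% of all probe sets.

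FIB2 had the largest change between days 9 and 10, with 9.60, 9.98 and 9.93 against 9.15, 8.56 and 8.74 (-1.02 ± 0.25, adjusted p = 0.0193). In the small subunit RPSAb went from 7.26, 7.47 and 7.37 to 6.68, 6.41 and 6.52 (-0.83 ± 0.20) and AT5G39850 from 5.18, 5.20 and 4.96 to 4.37, 4.13 and 4.43 (-0.80 ± 0.13, adjusted p = 0.00262). These groups stand well apart, and for AT5G39850 this interval exceeded the difference over all 5 days. AT2G31610 followed at -0.62 ± 0.12 and RPS5B, from a pair needed for early leaf and embryo growth, at -0.50 ± 0.13. In the large subunit RPL10B led with -0.58 ± 0.12, then AT1G70600 with -0.53 ± 0.11, AT4G36130 (RPL8) with -0.53 ± 0.14 and RPL23AB with -0.47 ± 0.13. The smallest values, none of them called, were those of RPL10A (-0.20 ± 0.10), EMB2296 (-0.20 ± 0.12) and RPL3A (-0.26 ± 0.11) in the large subunit, and of AT5G20290 (-0.19 ± 0.10), RPS13A (-0.23 ± 0.10) and RPS6A (-0.23 ± 0.10) in the small one. The number of calls rests on single arrays: it was 9, 10 and 4 without day 9 replicates 1, 2 and 3, and 21, 4 and 5 without day 10 replicates 1, 2 and 3. AT2G31610, AT5G39850 and FIB1 (-0.54 ± 0.11) were called whichever array was left out. After quantile normalization again 17 were called lower, and the probe sets called over the whole array divided into 1106 higher and 952 lower, in place of 718 and 1514.

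**Figure D3:**
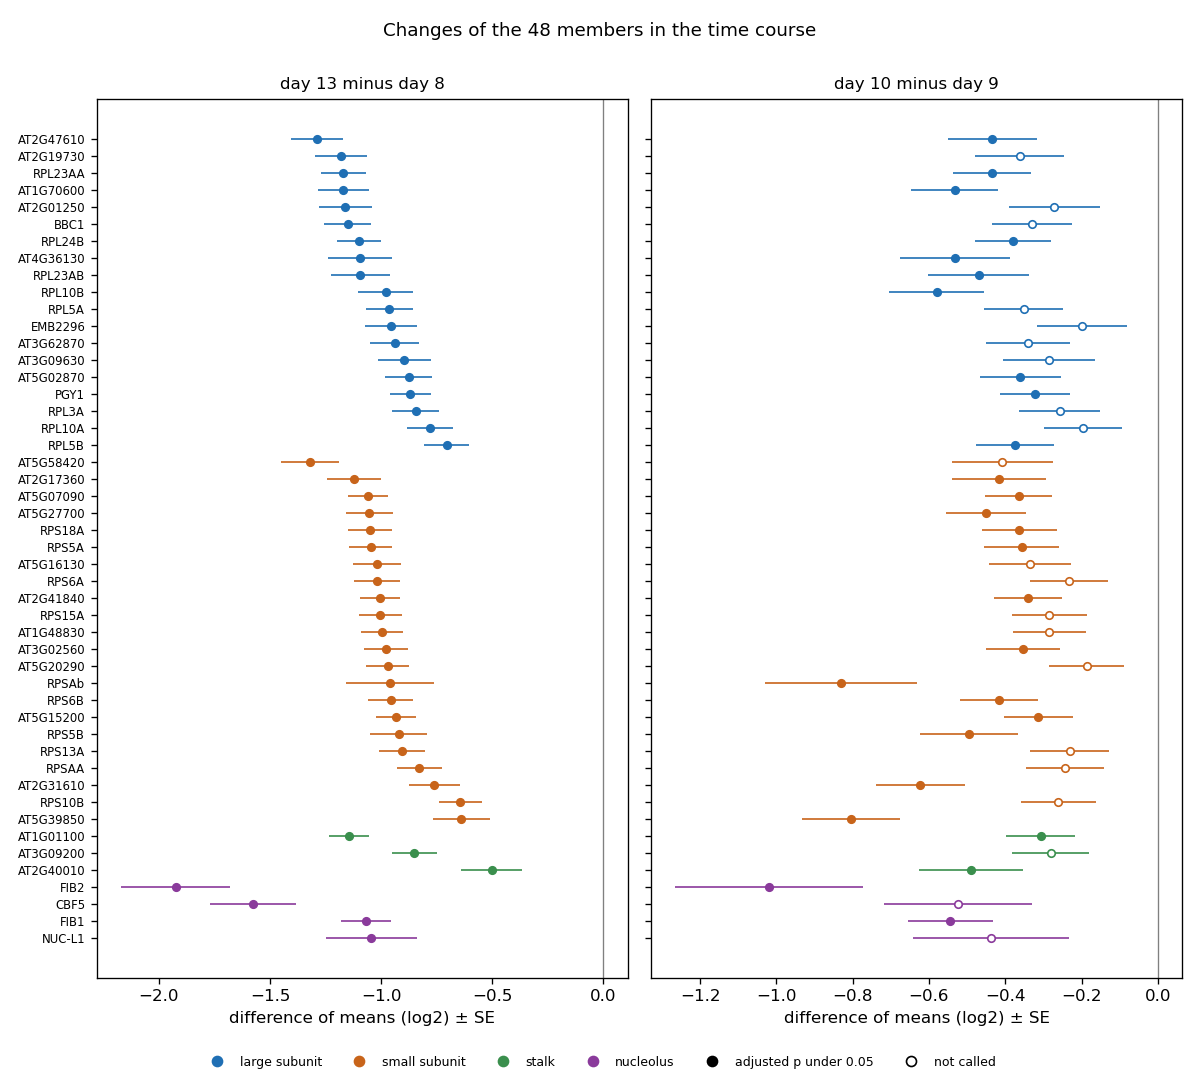
Difference of means (log2, horizontal axis) ± standard error for each of the 48 genes, by role, for day 13 minus day 8 (left) and day 10 minus day 9 (right). Filled points have an adjusted p below 0.05, and they number 48 on the left and 27 on the right, all below 0.

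After day 10 few of the 48 passed the test. For days 10 to 11 and 11 to 12 limma called 0 of the 48 (0% and 0.695% of all probe sets), with an unadjusted p below 0.05 for 4 and 8 (7.13% and 11.7%), and the medians were -0.13 and -0.17. From day 12 to day 13 all 48 differences were negative (51.2% of all probe sets, member median -0.31), 40 had an unadjusted p below 0.05, against 13.9% of all probe sets, and 1 was called, against 0.857% called lower. The called gene was the P1 gene AT1G01100, which read 11.93, 11.95 and 11.78 on day 12 and 11.50, 11.31 and 11.43 on day 13 (-0.47 ± 0.09, adjusted p = 0.0132). Its adjusted p was 0.0820 without day 12 replicate 2 and 0.110 after quantile normalization again. Without day 12 replicate 3, 4 of the 48 were called. Of each gene's fall over 5 days, the intervals from day 8 onwards held medians of 6.26%, 34.6%, 11.8%, 17.7% and 30.1%. The interval of days 9 to 10 was the largest for 36 genes and that of days 12 to 13 for 8. Neighbouring intervals share the arrays of a day, so that a high day 9 enlarges one and reduces the other, and the test of the difference between them called 0 of the 48, against 0.00331% of all probe sets for the first such difference and 0% for the second. For days 9 to 10 against days 8 to 9 all 48 estimates were below 0 (51.1% of all probe sets, member median -0.30) and 13 had an unadjusted p below 0.05, against 8.9% of all probe sets. For days 10 to 11 against days 9 to 10, 45 were above 0 (56.8% of all probe sets, member median 0.25) and 6 had such a p, against 9.17%.

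Paralogs were compared within each array, where the difference between the genes of a pair shows unequal change but not which gene is more abundant. Over the 18 pairs of families with more than 1 gene, the 9 arrays of days 8 to 10 were set against the 9 of days 11 to 13 by an exact two-sided permutation test, adjusted over the pairs. The test treats arrays of different days as exchangeable. Called were 2 pairs, and 8 had an unadjusted p below 0.05. AT2G47610 minus AT3G62870, the RPL7a pair, moved from -0.63 ± 0.08 to -0.87 ± 0.06 (SD, n = 9 each; exact p = 4.1e-05, the smallest the test can give, adjusted p = 0.00074). Its daily means were -0.55, -0.62, -0.71, -0.84, -0.88 and -0.90 from day 8 to day 13. The difference was lower on each later day, and all arrays of days 11 to 13 lay below all earlier ones.

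The fibrillarin pair had a larger change and a wider spread. FIB1 minus FIB2 went from 0.01 ± 0.26 to 0.64 ± 0.37 (SD, n = 9 each; exact p = 0.000411, adjusted p = 0.0037), with daily means of 0.06, -0.25, 0.23, 0.35, 0.64 and 0.92. On day 12 the arrays ranged from 0.36 to 1.20, the highest being that of replicate 3, in which FIB2 read 7.37 against 8.41 and 8.34. The change was 0.63 without the arrays of replicate 1, 0.56 without those of replicate 3 and 0.49 without day 9, a setting chosen after seeing the data, and the call ended in each (exact test, adjusted p = 0.130, 0.0779 and 0.0683), in tests whose smallest p is larger. Without day 9 the P0 pair, AT3G09200 minus AT2G40010, was called instead, with a change of -0.31 (exact test, adjusted p = 0.0036), against -0.20 with all days (0.102). With all days no pair of the other families was called, among them RPL5A minus RPL5B, with a change of -0.11 (adjusted p = 0.102), RPS6A minus RPS6B, with -0.03 (0.586), and RPS5A minus RPS5B, with 0.00 (0.985). RPL10A minus RPL10B changed by 0.24 and RPSAA minus RPSAb by 0.29 (adjusted p = 0.0513 and 0.111). After quantile normalization again both were among 8 pairs called, the number depending on the scaling.

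**Figure D4:**
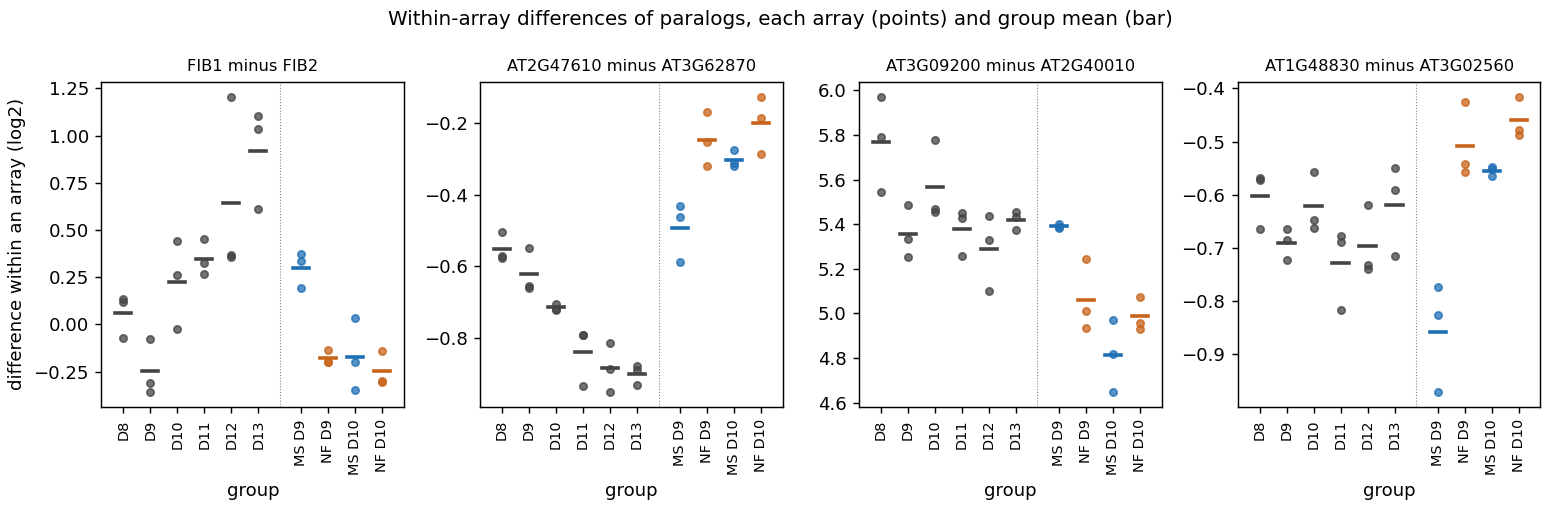
Difference between the genes of a pair within an array (log2, vertical axis) for 4 pairs, with every array (points) and the mean of 3 arrays (bar), for the time course (grey), MS medium (blue) and norflurazon (orange). The RPL7a pair goes from -0.55 on day 8 to -0.90 on day 13, FIB1 minus FIB2 from 0.06 to 0.92.

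Genes of the same machinery moved with the 48 from day 8 to day 13, when 19.8% of all probe sets were called lower. Of the other large subunit genes 84 of 89 probe sets fell from day 8 to day 13 (median -1.07), and of the other small subunit genes 58 of 63 (median -1.03), with none higher. AT1G80750 (-1.51 ± 0.18) and AT1G23410 (-1.60 ± 0.18) had the largest falls of these lists. Of 37 ribosome biogenesis genes 34 fell, by a median of -0.73, led by AT5G08180 (-1.94 ± 0.15), AT5G27120 (-1.66 ± 0.25), NOP10 (AT2G20490), the partner of CBF5 in the pseudouridylation complex (-1.65 ± 0.17), and AT3G05060 (-1.62 ± 0.16). NUC-L2 (AT3G18610), the other nucleolin gene, gave -0.01 ± 0.12 (adjusted p = 0.953). Transcripts for proteins of the plastid ribosome, a bacterial-type ribosome encoded in part by nuclear genes, went the other way. Of their 29 probe sets 26 rose and none fell (median 0.56), against 4204 of all 30237 called higher. After quantile normalization again 29 rose. TOR itself (AT1G50030) gave -0.06 ± 0.09, and of its kinases for RPS6, PK1 (AT3G08730, or S6K1) rose by 0.65 ± 0.14 and S6K2 (AT3G08720) changed by -0.66 ± 0.20 (adjusted p = 0.00139 and 0.0149).

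Between days 9 and 10 the same lists had 41 of 89, 32 of 63 and 31 of 37 probe sets lower and none higher. Over all probe sets 5.01% were called lower and 2.37% higher. The lists had 29, 20 and 20 lower after quantile normalization again, and as deposited AT3G23620 led the biogenesis genes at -1.10 ± 0.17. The plastid ribosome had 7 of 29 higher, with 17 after quantile normalization again and 3 after centring. Cell type and division markers moved in the same samples. All 8 mitosis genes fell from day 8 to day 13 (median -1.93), their list mean going from 6.73 to 6.98 over the day 8 arrays to 4.56 to 4.86 over the day 13 arrays. All 5 guard cell and all 6 vasculature markers rose. On day 8, 4 of the guard cell and 3 of the vasculature markers lay at or below the array median. SLAC1, a guard cell marker, still did on day 13. Of 7 mesophyll probe sets 5 rose, and 3 of 4 trichome regulators fell. The part of these changes in the fall of the 48 genes was not tested. Between days 9 and 10, when 27 of the 48 were lower, 1 of the 8 mitosis genes was lower (0 under either other scaling), with a list mean of 6.73 to 7.03 over the day 9 arrays and 6.60 to 6.70 over the day 10 arrays.

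Norflurazon was compared with MS medium at each time. At 24 h 5 of the 48 were higher and 0 lower, against 3.6% of all probe sets called higher and 3.83% called lower. In a separate fit of the brighter 15118 probe sets alone, with p-values adjusted over those, 9.33% of them and 10 of the 48 were called higher. Of the 48 differences 42 lay above 0, as did 48.5% of all probe sets. AT2G40010, the P0 gene with the smallest fall in the time course, read 7.60, 7.44 and 7.47 on norflurazon and 7.01, 6.97 and 6.85 on MS medium (0.56 ± 0.09, adjusted p = 0.00329). RPSAb read 7.36, 7.44 and 7.28 against 6.86, 6.86 and 6.61 (0.58 ± 0.11, adjusted p = 0.00903). Both groups of arrays are well separated, and these 2 calls held with any array left out. FIB2 read 10.37, 10.47 and 10.21 against 9.97, 9.79 and 9.44 (0.62 ± 0.15, adjusted p = 0.0254). RPL10B gave 0.45 ± 0.11 and EMB2296 0.34 ± 0.09 (adjusted p = 0.0258 and 0.0442). These 3 calls were lost without 1 array, at adjusted p = 0.0933 for FIB2 and 0.147 for EMB2296 without norflurazon replicate 2 and at 0.102 for RPL10B without MS replicate 3. The count was 3 without norflurazon replicate 1 and 2 without either of norflurazon replicate 2 and MS replicate 3.

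The rest of the 48 did not pass at 24 h. NUC-L1 gave 0.51 ± 0.16, CBF5 0.43 ± 0.19 and FIB1 0.14 ± 0.10 (adjusted p = 0.0818, 0.221 and 0.535). In the large subunit the next values were 0.39 ± 0.12 for AT1G70600 and 0.35 ± 0.12 for AT3G09630 (RPL4), and the smallest were 0.12 ± 0.09 for AT5G02870, 0.07 ± 0.07 for AT3G62870 and 0.03 ± 0.08 for RPL5A. In the small subunit RPS5B gave 0.33 ± 0.10, RPSAA 0.24 ± 0.07 and AT5G58420 0.23 ± 0.09, and the values nearest 0 were those of RPS5A (0.03 ± 0.08), RPS6B (-0.03 ± 0.07) and RPS13A (-0.02 ± 0.07). The stalk genes AT3G09200 and AT1G01100 gave 0.23 ± 0.07 and 0.03 ± 0.07. All 19 large subunit differences lay above 0, whereas the 22 of the small subunit ran from -0.18 to 0.58 with 6 below 0. After quantile normalization again 2 of the 19 and 12 of the 22 lay below 0, AT3G02560 (RPS7) was called lower (-0.27, adjusted p = 0.0236) and EMB2296 was not called (adjusted p = 0.0668), so the direction of the small subunit as a group is not settled at 24 h.

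At 48 h limma called 0 of the 48, against 0.771% of all probe sets. All 48 differences lay above 0, as 50.9% of all probe sets did, with a median of 0.20 over a range of 0.01 to 0.49. An unadjusted p below 0.05 was reached by 32, against 13.9% of all probe sets, and in 38 the 3 norflurazon arrays lay above the 3 MS arrays, as in 12.4% of all probe sets. After quantile normalization again 46 lay above 0, with a median of 0.13. The genes share their arrays, so such counts are not 48 separate observations. AT5G39850 had the largest value, with 5.61, 5.58 and 5.35 on norflurazon and 5.23, 4.92 and 4.92 on MS medium (0.49 ± 0.13, adjusted p = 0.109). NUC-L1 followed with 8.62, 8.25 and 8.47 against 7.94, 7.94 and 8.04 (0.48 ± 0.16, adjusted p = 0.188). Neither pair of groups overlaps, but neither gene passed the test over all probe sets. CBF5 gave 0.44 ± 0.19, FIB2 0.33 ± 0.15 and FIB1 0.25 ± 0.10, EMB2296 0.31 ± 0.09 and AT5G58420 0.32 ± 0.09. In the large subunit RPL24B gave 0.29 ± 0.08, AT4G36130 0.29 ± 0.10 and AT2G47610 0.27 ± 0.10, and the smallest values were those of AT3G62870 (0.17 ± 0.07), PGY1 (0.16 ± 0.09) and AT2G19730 (0.16 ± 0.07). In the small subunit RPSAb gave 0.32 ± 0.11 and RPS5B 0.27 ± 0.10, against 0.10 ± 0.07 for RPS10B, 0.08 ± 0.09 for AT5G16130 and 0.06 ± 0.07 for AT5G27700. The P0 gene AT2G40010, called at 24 h, was at 0.01 ± 0.09 at 48 h. The test of the difference between the effects at 48 h and 24 h called 0 of the 48, against 1.95% of all probe sets, and 3 had an unadjusted p below 0.05, against 13.7%, with AT2G40010 closest at -0.55 ± 0.13 (adjusted p = 0.0578, and 0.0236 after quantile normalization again).

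**Figure D5:**
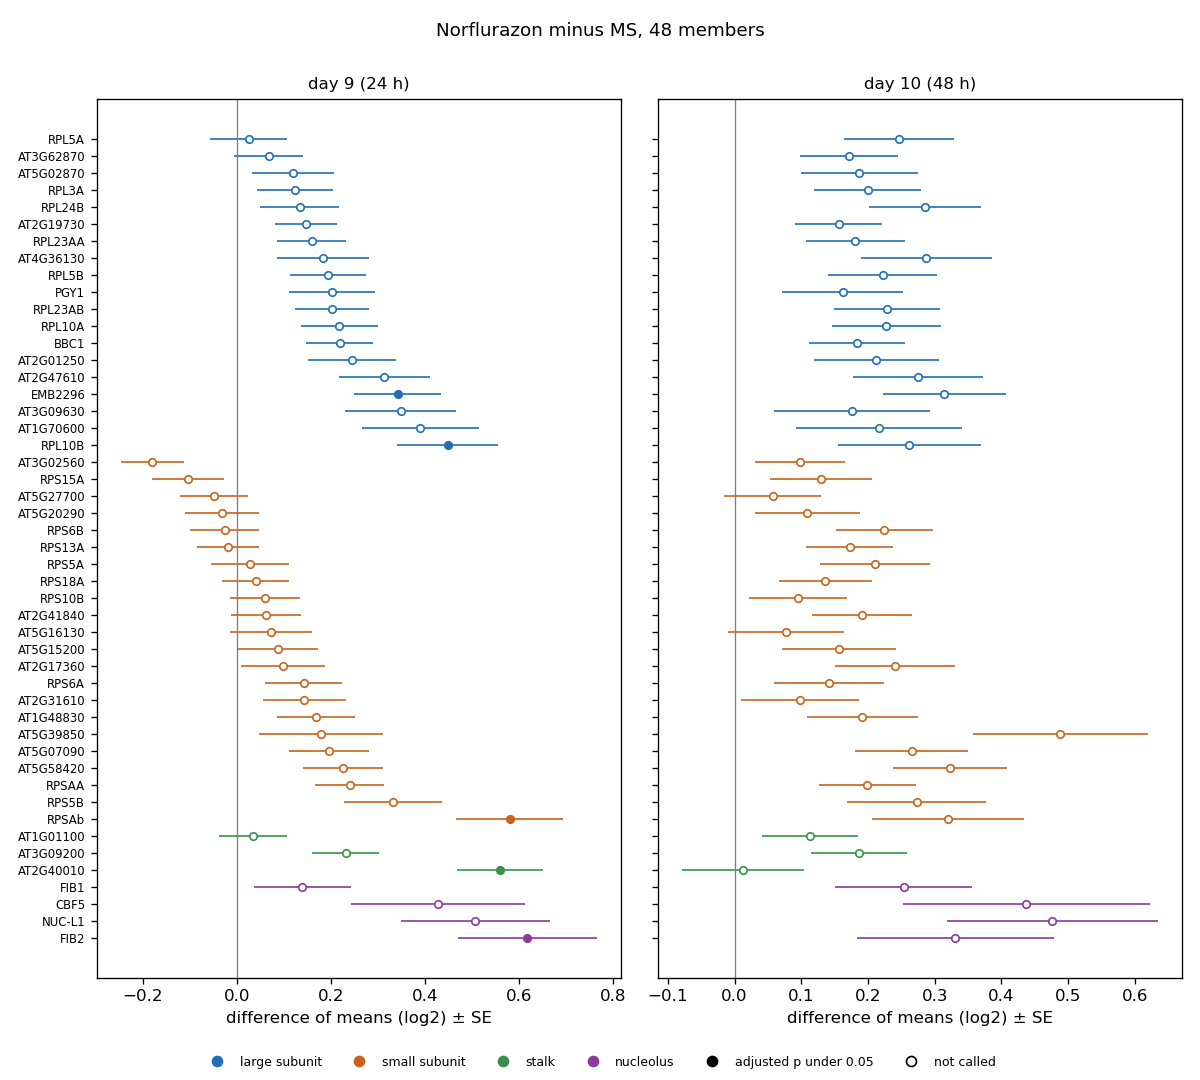
Norflurazon minus MS medium (difference of log2 means, horizontal axis) ± standard error for each of the 48 genes, by role, at day 9 (left) and day 10 (right). Filled points have an adjusted p below 0.05: 5 on the left, all above 0, and 0 on the right, where all 48 points lie above 0.

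The paralog differences were also set against norflurazon, with labels permuted within each day (exact two-sided test, smallest p = 0.005, adjusted over the 18 pairs). The 2 called pairs belong to the RPS7 family: AT1G48830 minus AT3G02560 was 0.22 higher on norflurazon over both days and AT1G48830 minus AT5G16130 0.11 higher (exact p = 0.005 and adjusted p = 0.045 for each, 0.060 after quantile normalization again). For the first pair the difference between the treatments was 0.35 at 24 h and 0.09 at 48 h. FIB1 minus FIB2 was 0.48 lower at 24 h and 0.08 lower at 48 h, where these values are not called (-0.28 over both days, exact test, adjusted p = 0.105). In this pair and in AT1G48830 minus AT3G02560 the MS group of day 9 stood apart. The RPS7 pair had a mean of -0.86 there, and -0.55, -0.51 and -0.46 on MS day 10, norflurazon day 9 and norflurazon day 10. For FIB1 minus FIB2 the means were 0.30 there, and -0.17, -0.18 and -0.25 in the same order.

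Other genes of the machinery behaved in a mixed way at 24 h. Of the other large subunit probe sets 12 of 89 were higher and 3 lower, with 8 and 5 after quantile normalization again. Of the small subunit 9 of 63 were higher and none lower (5 and 1 after quantile normalization again), among them RACK1C (AT3G18130) and RACK1B (AT1G48630), scaffold proteins of the small subunit, by 0.74 ± 0.14 and 0.70 ± 0.12. The largest were AT2G32220 (0.91 ± 0.12) and AT3G57490 (0.88 ± 0.11). Of biogenesis genes 5 of 37 were higher, such as AT3G15460 (0.64 ± 0.09), NOP56 (AT1G56110), a core protein of the methylating complex (0.63 ± 0.16), and the RNA helicase RH36 (AT1G16280; 0.55 ± 0.14), and 1 was lower, the rRNA dimethylase DIM1A (AT2G47420; -0.64 ± 0.09). PK1 (AT3G08730) and S6K2 (AT3G08720) rose by 0.48 ± 0.10 and 0.45 ± 0.09. Of the 8 mitosis genes 6 rose at 24 h, the list mean being 7.10 to 7.25 on norflurazon and 6.35 to 6.70 on MS medium, and 4 of 7 mesophyll probe sets rose. The part of these in the values of the 48 was not tested. At 48 h 0.771% of all probe sets were called. Of the 89 large subunit probe sets 1, AT5G02610 (0.42 ± 0.07), was higher, and none of the small subunit, biogenesis, plastid ribosome or mitosis lists was called.

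On MS medium the day 9 to day 10 interval of this experiment can be placed beside that of the time course. These are values from separate experiments with no test between them. The MS seedlings had been transferred at day 8, whereas the time course plants were without treatment. Of the 48 on MS medium, 1 was higher (5.18% of all probe sets) and 3 were lower (6.31%), and the median was -0.02. The P0 gene AT2G40010 rose from 7.01, 6.97 and 6.85 to 7.68, 7.34 and 7.54 (0.58 ± 0.09, adjusted p = 0.00153). Its day 9 arrays here are also the controls of its norflurazon call at 24 h. In the time course the same gene changed by -0.49 ± 0.14 over this interval. AT3G02560 gave -0.31 ± 0.07, RPS15A -0.28 ± 0.08 and RPS6B -0.25 ± 0.07 (adjusted p = 0.0107, 0.0356 and 0.0416), and their counterparts in the time course were -0.35 ± 0.10, -0.28 ± 0.10 and -0.42 ± 0.10. The calls of AT2G40010 and AT3G02560 held with any array left out. Those of RPS15A and RPS6B did not, with an adjusted p of 0.125 for RPS15A without MS day 10 replicate 2 and of 0.154 for RPS6B without MS day 9 replicate 2, and 2 of the 48 were called without MS day 9 replicate 1, MS day 10 replicate 1 or MS day 10 replicate 2. FIB2 gave 0.33 ± 0.15 on MS medium and -1.02 ± 0.25 in the time course. Of the mitosis list, 6 of 8 were higher on MS medium and 1 of 8 was lower in the time course, and its part was not tested. On norflurazon limma called 0 of the 48 between days 9 and 10, against 1.96% of all probe sets, 0 had an unadjusted p below 0.05, against 11.6% of all probe sets, and the differences ran from -0.11 to 0.19.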

How the data were processed

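Total RNA of leaf 3 was hybridized to AGRONOMICS1 tiling arrays, 30 in all. The authors deposited log2 values made with RMA on TAIR9, per the submitters' processing notes. Raw intensities were not used here. Columns of other samples numbered 0. Arrays give no counts, and their number limits the precision. P-values of the limma fits rest on the spread between biological repeats within groups, pooled over all groups of an experiment and moderated by eBayes. Those of the time course paralog test come from permuting arrays across days, so they mix age with that spread.

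Members were matched by locus, with the suffix of the identifier removed (24 ended in 0 and 24 in X). Symbols were looked up in a TAIR10.1 gene table, without coordinates. Some genes are printed under another name than its symbol, such as RPL3A (RP1), RPL5A (ATL5), RPL10A (SAC52) and CBF5 (NAP57). The members and lists were chosen with earlier results of these data known. Genes were named by a rule: nucleolar and stalk genes, families with several genes, the largest and smallest changes in each subunit, and up to 4 called loci per other list.

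Each experiment was fitted apart with limma 3.58.1 in R 4.3.3 (1 coefficient per group, eBayes), and tested on simulated data. Paralogs were tested with Python 3.11.15. The labels do not say that repeats with the same number are paired. Correlations of their deviations were -0.25 to 0.17 (time course) and -0.06 to 0.09 (norflurazon), and pairing was not tested. Alternatives were other scalings, a filter on dim probe sets, an intensity trend, a replicate block, fits of the compared arrays alone and leaving out each array.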

Additional observations from a re-analysis of the deposited data

How the results depend on the processing

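No called gene turned its direction under any alternative run. The count of 48 lower genes from day 8 to day 13 was 47 to 48 with 1 array left out. For days 9 to 10 the count of 27 became 17 after quantile normalization again and 5 in a fit of just the compared arrays. It was 20 with the replicate block, 34 with an intensity trend and 4 to 21 with 1 array left out. Among brighter probe sets, 13.9% of which were called lower, it was 33. For days 12 to 13 the count of 1 became 6 among brighter probe sets, 3.06% of which were called lower. It was 8 with the trend and 0 to 4 with 1 array left out. For norflurazon at day 9 the count of 5 became 10 among brighter probe sets, 9.33% of which were called higher. It was 8 with the trend, 3 with the replicate block, 2 with only the compared arrays and 2 to 5 with 1 array left out. Of the 24 genes whose identifier ends in 0, a setting chosen after seeing the data, 4 were called. For MS medium from day 9 to day 10 the count of 4 became 6 after quantile normalization again (1 higher and 5 lower), 5 with the trend, 2 with median centring, 2 with the replicate block, 2 with only the compared arrays and 2 to 3 with 1 array left out. The interaction had 0 to 1. Apart from those among brighter probe sets, these counts stand without the share of all probe sets in the same fit. They do not set the 48 against the rest. The 2 called pairs of paralogs in the time course became 8 after quantile normalization again and 1 to 2 without 1 replicate, and the 2 pairs under norflurazon 0 after quantile normalization again and 0 without 1 replicate, where the arrangements left are too few to pass. The labels give the repeats no more than a shared number. Each number occurs once in each group, so the block leaves every difference unchanged and alters only its standard error and p-value. The cause of these differences was not tested. The promoter motifs and their alternatives were not run, since no sequence was at hand.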
